A study of Drosophila melanogaster with 8 samples.

Results

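Weak divergent pairs are places where a plus strand start of transcription and a minus strand start lie back to back at low level, away from any strong promoter. They were chosen by their measured tag counts. CAGE, which counts the capped 5′ ends of RNAs, gave tag clusters (TCs), which are runs of start positions on one strand within 20 bp of each other. Levels are in TPM, tags scaled to a library total of 1000000. On chromosome arms 2L and 3L of D. melanogaster (dm3), each plus TC was joined to its nearest upstream minus TC when both had a mean of 0.1 to 2 TPM over the 8 libraries, their summits lay within 250 bp, and no TC of 5 TPM or more lay within 1 kb on either strand. The rule gave 2934 pairs, 1377 on 2L and 1557 on 3L. The whole genome held 16221 divergent pairs with both TCs at 0.1 TPM or more, and 688364 TCs in all.

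S2 cells, a line derived from fly embryos, had received dsRNA against GFP or against both Dis3 and Rrp6, the catalytic subunits of the nuclear exosome, and were harvested at day 4. Each group had 4 libraries, of 33565925 to 46388382 tags. The study calls its replicates biological, whereas the labels do not say which libraries came from separate cultures, and every p-value measures the spread between these libraries. The deposited labels run opposite to the study's own table of expression: the value of a single tag there matched all 8 columns to 1 library each, and it placed the 4 libraries labelled control in the knockdown columns and the 4 labelled exosome knockdown in the GFP columns. Libraries are therefore named by their labels throughout. "Higher" and "lower" describe the libraries labelled control, and a positive fold change means more tags in them. Tags at the Dis3 and Rrp6 genes were not checked here. No dm3 gene annotation was used, so the places below carry coordinates and no gene names.

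Divergent initiation is common at open chromatin, where polymerases can start on both strands from the edges of a nucleosome-depleted region. At enhancers both products are typically short, capped enhancer RNAs (eRNAs), which the nuclear exosome degrades soon after they are made. At gene promoters one product is an mRNA and the upstream antisense product is often an exosome target called a PROMPT. Depletion of Dis3 and Rrp6 therefore makes such RNAs easier to see by CAGE.

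The summits of a pair lay close together. The median distance was 40 bp, the quartiles were 22 and 70 bp, and 358 pairs were more than 100 bp apart. These values depend on joining the nearest minus TC whatever its level: when the nearest minus TC of at least 0.1 TPM was taken in its place, 5149 pairs passed and their median distance was 74 bp. The closest members to the limits had a mean of 0.10003 TPM and of 1.99 TPM, and the largest distance was 248 bp. Just outside, plus TCs were left out for a TC of 0.09999 TPM or of 2.01 TPM, and the next distance was 252 bp. In 1063 pairs (36.2%) the plus and the minus TC overlapped or interleaved. A minus TC could serve several plus TCs: 799 pairs (27.2%) shared theirs, so the pairs held 2505 distinct minus TCs and 5439 distinct TCs.

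The plus TC of many pairs also faced a weak minus TC downstream. The same limits applied in mirror image, with the minus TC downstream of the plus TC and facing it, gave 3224 pairs at a median distance of 34 bp. For 1460 of the 2934 pairs (49.8%), the plus TC was also the plus TC of such a facing pair. Weak starts of both strands were thus often interleaved, and a pair is divergent by the rule alone. Among pairs with no other pair within 2 kb the share was 32.4%, and among those in runs of 10 or more pairs it was 63.9%.

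**Figure D1:**
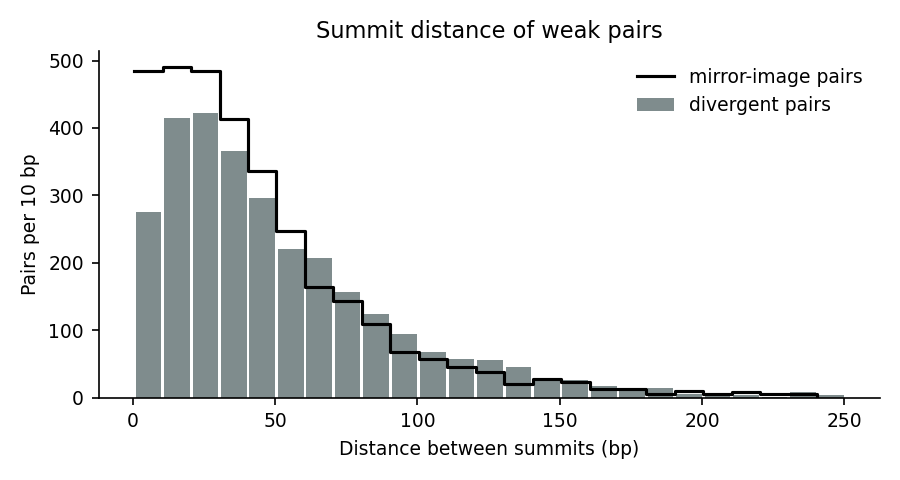
Number of pairs per 10 bp of distance between the plus and the minus summit, for the 2934 divergent pairs (bars) and for the 3224 facing pairs found with the same limits in mirror image (line). Both fall off over the same range, with medians of 40 and 34 bp.

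The rule held both strands between 0.1 and 2 TPM, so their levels are given as a description only. The median plus TC had 0.239 TPM, or 75 tags over the 8 libraries, and the median minus TC had 0.240 TPM, or 77 tags. The stronger strand exceeded the weaker by a median of 1.94-fold, and 51.8% of the pairs lay within 2-fold, although 374 pairs exceeded 5-fold. The plus strand was the stronger in 1412 pairs (48.1%). The TCs were spread over several positions: the median width was 25 bp for plus and 31 bp for minus TCs, and the summit position held a median of 33.3% and 30.0% of the tags. Weak TCs of the same arms with no TC of 0.1 TPM on the other strand within 250 bp, 9759 in number, had a median width of 21 bp and 39.8% of their tags at the summit.

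Tags in a single library were few. Both strands had a tag in all 8 libraries for 1892 pairs (64.5%). In the libraries labelled control 2791 to 2867 pairs had tags on both strands, and in those labelled exosome knockdown 2396 to 2574 pairs did. Within a group the level of a TC varied by a median CV of 42.5% to 49.1%. No tag was found in any library labelled exosome knockdown for 143 of the 5439 TCs, and in any library labelled control for 1 TC.

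Summed over the members, the plus TCs gave 1133, 999.8, 1304 and 1209.6 TPM in replicates 1 to 4 of the libraries labelled control, and 815, 826, 1028 and 1071.5 TPM in those labelled exosome knockdown. The distinct minus TCs gave 983, 869, 1162 and 1103 TPM, against 739, 773, 912 and 945 TPM. On either strand the lowest library labelled control lay below the highest labelled exosome knockdown, so the groups overlapped.

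Most pairs did not pass the test of change on either strand, which does not show that they were unchanged. The quasi-likelihood test of edgeR, adjusted by Benjamini-Hochberg over the 128731 TCs of at least 0.1 TPM was applied at an adjusted p under 0.05. Of all TCs tested 24.1% were higher and 10.1% lower. Of the 2934 plus TCs of pairs 632 (21.5%) were higher and 291 (9.92%) lower, and of the 2505 minus TCs 520 (20.8%) were higher and 268 (10.7%) lower. Groups did not overlap, with the libraries labelled control higher, for 603 plus TCs (20.6%, against 22.9% of all TCs tested), and lower for 296 (10.1%, against 10.2%). All these shares are near the background. The median log2 fold change was 0.05 for the distinct TCs of pairs and 0.09 for all TCs tested. TCs that lacked tags in a whole group stay on the same side of the median when set to the bound that 3 tags over that group allow, so it is 0.05 either way. One-strand weak TCs of the same arms were higher in 21.7% and lower in 8.30%. Weak minus TCs upstream of plus TCs of 5 TPM or more across the genome, 698 in number, were higher in 35.96% and lower in 15.9%. Whether any of these shares differ was not tested.

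Exosome sensitivity in the study is the part of the mean in the depleted libraries that the control libraries lack, with negative values counted as 0. Minus TCs were counted here once for each pair, so those shared by pairs count more than once. Because labels and table disagree, both directions are given. The first is the part of the mean labelled control that the other group lacked, which is the measure under the study's own table. Its median was 0.0507 for plus TCs and 0.0604 for minus TCs. Of these TCs 60.7% and 60.6% lay under 0.25, and 18.1% and 17.5% lay over 0.75. For the part of the mean labelled exosome knockdown that those labelled control lacked, which is the measure under the labels as deposited, both medians were 0, 68.1% of plus TCs and 67.8% of minus TCs lay under 0.25, and 4.12% and 4.23% lay over 0.75.

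Where both strands of a pair passed the test, they nearly always went the same way. Both were higher in 468 pairs (15.95%, against 19.4% of all divergent pairs) and both were lower in 176 pairs (6.00%, against 4.49%). Opposite calls occurred in 5 pairs (0.170%, against 1.58%). All divergent pairs include TCs above the upper limit of the rule, so the shares are not like for like. In 305 pairs 1 strand alone was higher (10.4%, against 16.1%), in 260 pairs 1 strand alone was lower (8.86%, against 10.5%), and 1720 pairs had no call. Among plus TCs called higher, 74.1% had a partner called higher, against 68.5% over all divergent pairs. The log2 fold changes of both strands had a Pearson's r of 0.78 across the 2934 pairs, which share libraries, and in 799 cases a minus TC, and of 0.66 across all divergent pairs. Within a group, the deviations of both strands from their group means had an r of -0.11 to 0.40 per library, across the 483 pairs with 0.3 TPM or more on both strands. The 176 pairs with both strands lower lay in 63 runs of pairs, and 38 of them in the largest run, described below. Their number was 95 without the runs of 10 or more pairs, and 108 and 111 without replicate 1 labelled control and replicate 3 labelled exosome knockdown.

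**Figure D2:**
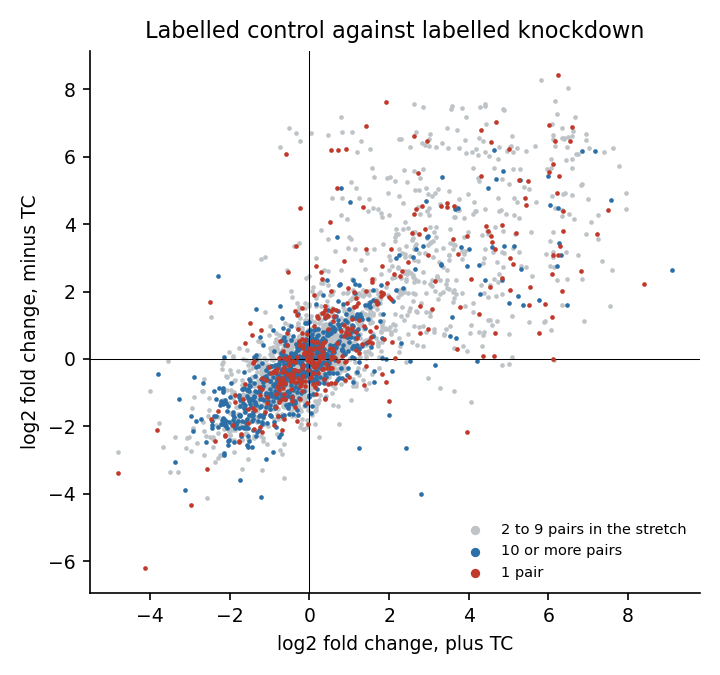
Fitted log2 fold change (positive where the libraries labelled control had more tags) of the plus TC and the minus TC of each of the 2934 pairs, coloured by the number of pairs in the run. Points follow the diagonal (r = 0.78), with points of every class of run at the far upper right and few in the quadrants of opposite sign.

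A difference between the strands in their change was tested directly, as a strand by group term in edgeR over all 16221 divergent pairs. Of the 2934 pairs 157 (5.35%) were called. The number depends on the counting: tags in windows of 200 bp gave 250 pairs, and a filter of 0.3 TPM on both strands, which 483 pairs pass, gave 52. The plus strand was up more in 84 (2.86%, against 8.32% of all divergent pairs) and the minus strand in 73 (2.49%, against 7.66%). Stronger TCs, which the rule leaves out, are among all divergent pairs, and smaller differences can be called in them. With an adjusted p over 0.05 in the other pairs, equal change of both strands is not shown, and the median size of the difference was 0.56 on the log2 scale.

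The 4 pairs with the largest strand differences follow. They were chosen by that difference among the pairs called, so their p-values are a description. At chr3L:1505669-1505703 the plus TC had 0.472, 0.236, 0.754 and 0.299 TPM in replicates 1 to 4 of the libraries labelled control, and 0.0683, 0.0596, 0.0260 and 0.0820 TPM in those labelled exosome knockdown. The minus TC 29 bp upstream went the other way, with 0.0225, 0, 0.0216 and 0.0815 TPM against 0.524, 0.536, 0.650 and 0.355 TPM. Neither strand's groups overlapped, the plus strand was higher by 2.80 ± 0.55 (log2 fold change ± SE, edgeR, adjusted p = 0.00083), the minus strand fell by 4.00 ± 0.61 (adjusted p = 0.00011), and the strand difference was 6.79 ± 0.86 (adjusted p = 2.2e-06). This is one of the 5 pairs with opposite calls.

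At chr2L:2163816-2163897 the plus TC had 2.29, 1.89, 1.77 and 0.924 TPM in the libraries labelled control, while those labelled exosome knockdown had none, which makes it at least 87.4-fold higher when 3 tags are allowed over the 4 libraries. Its minus TC had 0.270, 0.368, 0.453 and 0.136 TPM against 0.0456, 0.0596, 0.0520 and 0.0273 TPM. Both strands were thus higher without overlap, the plus strand by more (strand difference adjusted p = 0.0010).

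At chr2L:6659951-6659983 the minus TC carried the change. It had 4.95, 2.42, 2.11 and 1.11 TPM in the libraries labelled control, against 3 tags in all of the others. Its plus TC had 0.427, 0.105, 0.647 and 0.299 TPM against 0.501, 0.387, 0.442 and 0.738 TPM, and the groups overlapped. The strand difference had an adjusted p of 1.9e-07. At chr3L:18819324-18819465 the minus TC had 0.112, 0.158, 0.302 and 0.435 TPM and no tag in the libraries labelled exosome knockdown, at least 12.8-fold higher, while the plus TC had a mean of 0.134 ± 0.0892 TPM against 0.222 ± 0.108 TPM (SD, n = 4 each).

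Pairs were not scattered evenly. When midpoints within 2 kb of each other were linked, a distance chosen after the values were seen, the 2934 pairs fell into 909 stretches. A single pair made up 367 of them, and 50 stretches with 10 or more pairs held 757 pairs (25.8%). The nearest TC of 5 TPM or more lay a median of 2678 bp from a pair, and 277 pairs (9.44%) lay beyond 10 kb from any.

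Calls were counted by the size of the stretch. Of the TCs in stretches of 1 pair 28.3% were higher and 6.40% lower, with a median log2 fold change of 0.33. In stretches of 2 to 4 pairs 28.2% were higher and 7.87% lower, with a median of 0.25. In stretches of 5 to 9 pairs 19.0% were higher and 9.37% lower. In stretches of 10 or more pairs 11.1% were higher and 16.5% lower, with a median of -0.20. A single stretch of 56 pairs, described below, decides the last of these: without it 11.9% were higher and 11.3% lower, with a median of -0.12. Counted by pairs, both strands were higher in 19.9% of the pairs that stood alone and both lower in 3.27%, and in stretches of 10 or more the shares were 7.79% and 10.7%. Without the stretch of 56 pairs the shares in stretches of 10 or more were 8.42% and 6.13%, so that fewer pairs were lower than higher. With midpoints linked within 1 kb in place of 2 kb, the share with both strands higher in the densest stretches was 3.87%. These are counts beside the background. It was 24.1% higher and 10.1% lower for all TCs tested, and 19.4% and 4.49% for both strands of all divergent pairs. The difference between stretch sizes was not tested.

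**Figure D3:**
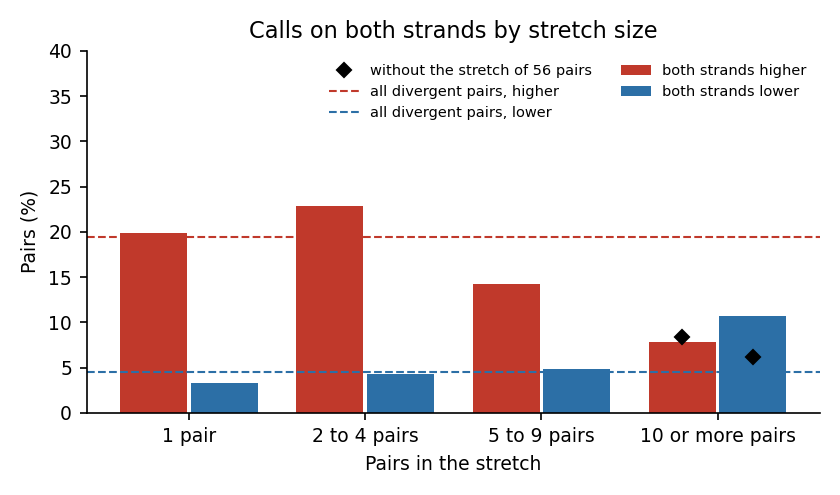
Share of pairs with both strands called higher (red) or lower (blue) in the libraries labelled control, by the number of pairs in the stretch, with the shares of all 16221 divergent pairs as dashed lines and diamonds for the last class without its stretch of 56 pairs. Calls higher make up 19.9% of pairs that stand alone and 7.79% in stretches of 10 or more, where calls lower make up 10.7%, or 6.13% without that stretch.

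Levels were summed by stretch size too. The TCs of pairs standing alone summed to 218 to 290 TPM in the libraries labelled control and to 151 to 196 TPM in the others, without overlap. Those in stretches of 10 or more pairs summed to 480 to 616 TPM and to 493 to 671 TPM, which overlap. Of the 542 stretches with 2 or more pairs 217 held no call and 76 held 1 called TC, which has no other to differ from. Of the 249 with 2 or more called TCs 172 held only higher calls, 68 only lower calls and 9 both. Of the 96 with 5 or more called TCs the numbers were 68, 27 and 1.

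Tags were also counted by their distance from the midpoints. At pairs standing alone the plus strand had 0.0539 TPM per pair and 10 bp over the first 50 bp downstream of the midpoint in the libraries labelled control, against 0.0365 TPM. In stretches of 10 or more pairs the values were 0.102 and 0.110 TPM. The peak at the midpoint follows from the rule. Farther out, the tags in dense stretches include the TCs of neighbouring pairs, so the surroundings of the 2 classes differ by the way they were chosen.

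**Figure D4:**
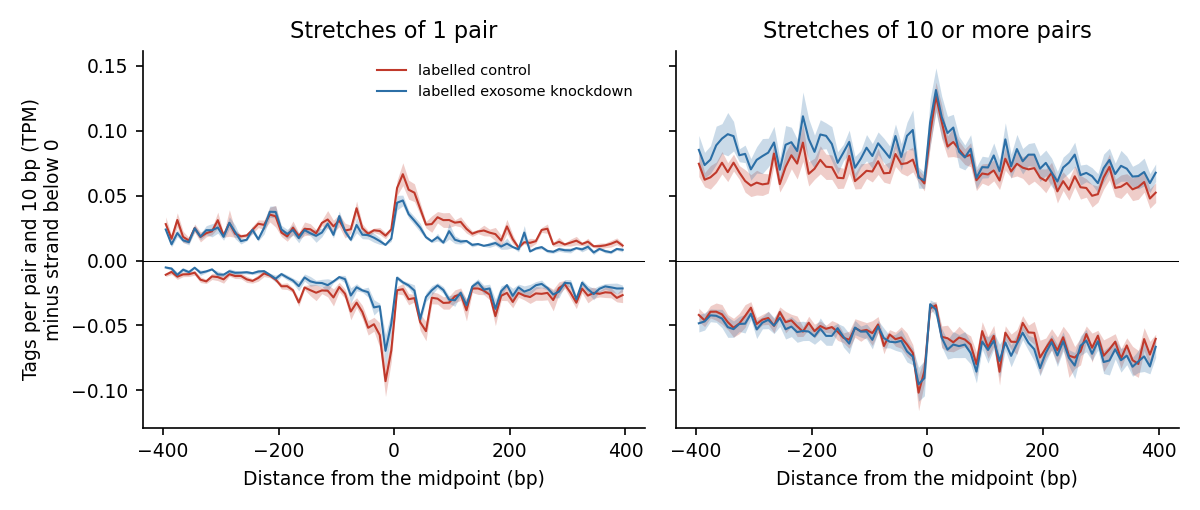
Mean tags per pair and 10 bp (TPM) around the midpoints of pairs standing alone (left) and in stretches of 10 or more pairs (right), plus strand above 0 and minus strand below. Lines are means of the 4 libraries of a group and bands are ± 1 SD; close to the midpoint the plus lines stand at 0.0539 and 0.0365 TPM at pairs standing alone and at 0.102 and 0.110 TPM in the dense stretches, whose surroundings hold the TCs of neighbouring pairs.

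Of the 50 stretches with 10 or more pairs 20 held only higher calls, 13 only lower calls, 3 both and 14 none. The stretch with the most pairs was chr2L:3060974-3067516, 6543 bp with 56 pairs. On the plus strand it held 47.2, 37.7, 33.4 and 54.6 TPM in the libraries labelled control and 152, 144, 194 and 129 TPM in those labelled exosome knockdown. On the minus strand it held 13.7, 18.8, 11.3 and 15.6 TPM against 42.3, 57.6, 77.3 and 42.1 TPM. Each library labelled control lay below each of the others on both strands. The means were 3.59-fold and 3.68-fold higher in the libraries labelled exosome knockdown, and the plus strand took 74.1% ± 5.16 and 74.2% ± 3.32 of the tags in the 2 groups (SD, n = 4 each). Of its 56 plus TCs 49 were called lower and of its 40 minus TCs 32, against 10.1% of all TCs tested. None was higher and no strand difference was called. The TCs of 1 place are not separate replicates of its change. This stretch supplied 38 of the 176 pairs with both strands lower. A TC of 5 TPM or more lay 1059 bp from its nearest pair. The 20 kb window with the most pairs on 2L was this place with 1 more pair.

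The next stretches of 2L by number of pairs also held lower calls alone. At chr2L:5012838-5017961, with 26 pairs, the plus strand had 9.06, 9.98, 9.57 and 16.1 TPM against 18.7, 20.8, 37.5 and 38.3 TPM, and 14 of the plus TCs were lower. At chr2L:6416302-6421398, also with 26 pairs, the plus strand had 8.91, 9.25, 8.13 and 12.6 TPM against 15.5, 24.0, 33.7 and 21.9 TPM, and 11 of the plus TCs were lower. The groups did not overlap at either, nor on their minus strands, which were 2.26-fold and 2.23-fold higher in the libraries labelled exosome knockdown. The 20 kb window with the most pairs on 3L, chr3L:6188589-6208588 with 35 pairs, had 18 plus and 20 minus TCs lower and none higher. Of all TCs tested 10.1% were lower.

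Of the other dense stretches, some held higher calls or none. At chr3L:569696-574612, with 24 pairs, 3 plus and 4 of 19 minus TCs were lower and none higher, against 10.1% lower of all TCs tested. Its means were 1.77-fold and 1.80-fold higher in the libraries labelled exosome knockdown, without overlap. At chr2L:481398-488125, with 19 pairs, the plus strand had 33.4, 27.0, 31.7 and 49.96 TPM in the libraries labelled control, against 3.62, 1.97, 0.962 and 6.86 TPM, and the minus strand had 46.1, 37.5, 46.5 and 83.7 TPM against 7.24, 4.89, 2.13 and 14.1 TPM. The groups did not overlap on either strand, and the means were 10.6-fold and 7.54-fold higher in the libraries labelled control. Of its 19 plus TCs 18 were called higher and of its 14 minus TCs 13, against 24.1% of all TCs tested. The stretch supplied 17 of the 59 pairs of dense stretches with both strands higher. It was chosen after the values were seen, as the dense stretch with the most higher calls.

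At chr3L:2637315-2641719, the stretch of 3L with the most pairs, 28, the plus strand had 27.3, 20.3, 25.8 and 29.7 TPM against 24.96, 23.4, 22.5 and 37.3 TPM, and no TC was called. At chr2L:5200302-5205426, with 22 pairs, the plus strand had 28.7 ± 6.55 TPM against 24.3 ± 6.93 TPM (SD, n = 4 each) and no TC was called either.

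Several smaller stretches of 3L were close to silent in the libraries labelled exosome knockdown. They are named because they hold pairs with the largest changes. At chr3L:2573447-2575790, with 8 pairs, the plus strand had 12.2, 9.14, 16.3 and 11.8 TPM against 0.319, 0.179, 0.182 and 0.273 TPM, and the minus strand had 13.5, 14.1, 22.03 and 11.3 TPM against 0.273, 0.119, 0.130 and 0.383 TPM. The means differed 51.8-fold and 67.3-fold. All 8 plus and 5 minus TCs of its pairs were called higher, against 24.1% of all TCs tested.

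At chr3L:8076813-8078433, with 7 pairs, the plus strand had 15.3, 12.8, 28.1 and 12.8 TPM against 0.205, 0.0596, 0.234 and 0.437 TPM, and the minus strand 5.92, 6.25, 8.13 and 6.22 TPM against 0.159, 0.0596, 0.0520 and 0.273 TPM. At chr3L:15222383-15224706, also with 7 pairs, the plus strand had 15.7, 19.6, 33.6 and 14.5 TPM against 0.433, 0.268, 0.182 and 1.18 TPM. The plus strands differed 73.8-fold and 40.5-fold and the minus strands 48.7-fold and 25.8-fold. In both places all 7 plus and 5 minus TCs were higher, against 24.1% of all TCs tested. Each place was named for a pair higher on both strands, so the agreement of its strands is a description.

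**Figure D5:**
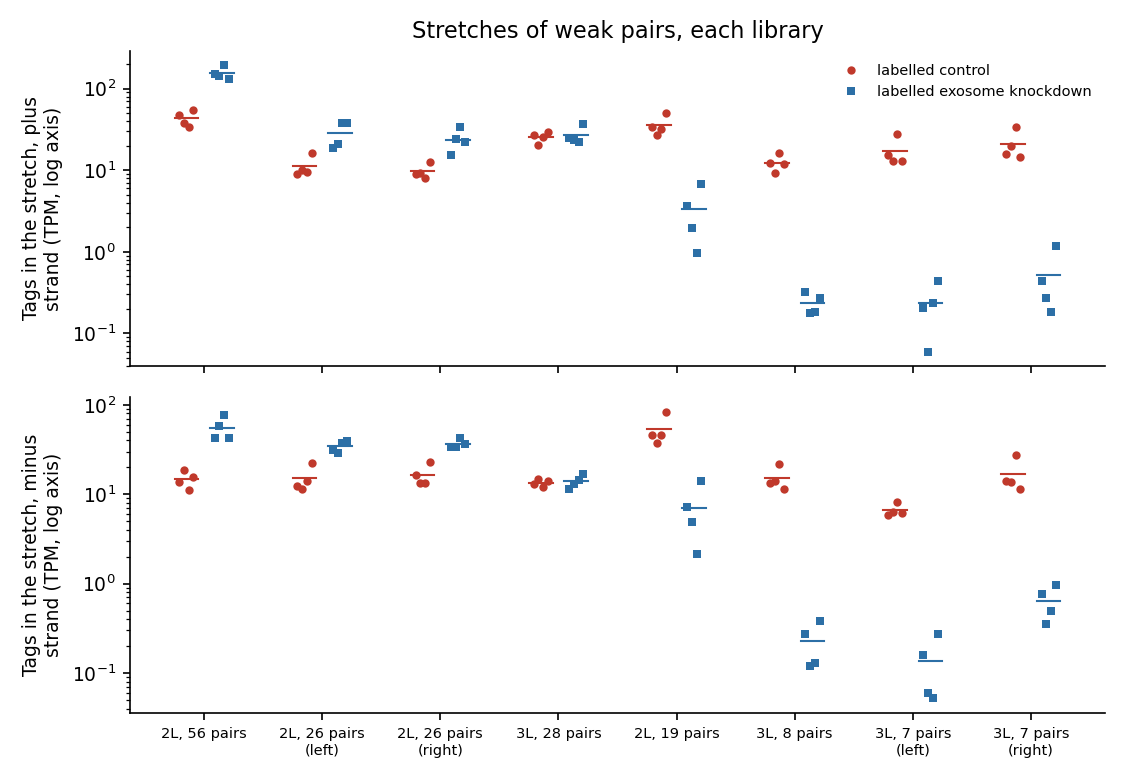
Tags (TPM, log axis) on the plus strand (top) and the minus strand (bottom) of 8 named stretches of 2L and 3L in each of the 4 libraries labelled control (circles) and the 4 labelled exosome knockdown (squares), with lines at the means. The 3 stretches of 2L with the most pairs lie lower in the libraries labelled control, the stretch of 28 pairs overlaps, the stretch of 19 pairs is 10.6-fold and 7.54-fold higher, and the 3 stretches of 7 or 8 pairs differ by 25.8-fold to 73.8-fold.

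The change of a stretch was set beside that of the nearest strong TC. Across the 50 stretches of 10 or more pairs, the median log2 fold change of the members and that of the nearest TC of 5 TPM or more had a Pearson's r of 0.63. Across stretches of 2 to 4 and of 5 to 9 pairs r was 0.47 and 0.61, and across the 367 pairs standing alone it was 0.31. A median over the TCs of 1 pair is noisier than that of a dense stretch, which can lower r. Stretch sizes therefore cannot be compared by these values. The points share the 8 libraries, and the part of nearby promoters in the change of the pairs was not tested.

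Pairs standing alone had no other pair within 2 kb, although 32.4% of their plus TCs were also in a facing pair. At chr3L:11343459-11343501, 41 bp between summits, the plus TC had 0.315, 0.236, 0.237 and 0.380 TPM in the libraries labelled control and the minus TC had 0.270, 0.236, 0.410 and 0.190 TPM, while neither had a tag in any library labelled exosome knockdown. The strands were at least 14.9-fold and 14.1-fold higher, with 48 and 47 tags. At chr3L:19986821-19986877 the minus TC had 1.48, 0.919, 0.841 and 1.03 TPM and the plus TC 0.135, 0.105, 0.604 and 0.109 TPM, again with no tag on either strand in the other group, at least 54.4-fold and 12.1-fold. Both pairs were chosen after their values were seen, by the rule for the largest changes applied to pairs standing alone.

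At chr2L:21690419-21690506, a pair standing alone with summits 66 bp apart, the plus TC had 2.59, 0.788, 1.75 and 1.30 TPM in the libraries labelled control, against 2 tags in all of the others. The minus TC had 0.495, 0.263, 0.539 and 0.163 TPM and no tag in the others, at least 18.6-fold. Both strands passed edgeR's quasi-likelihood test (adjusted p = 4.1e-06 and 0.00020), which was a condition for naming the pair. At chr2L:7779910-7779964 the plus TC had 0.742, 0.473, 1.25 and 0.353 TPM against 1 tag, and the minus TC had 0.405, 0.158, 0.410 and 0.136 TPM against none, at least 14.1-fold.

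The other pairs with the largest changes on both strands lay in the stretches of 3L described above or in a stretch of 2 pairs. At chr3L:16636910-16637073, summits 132 bp apart, the plus TC had 0.270, 0.368, 0.496 and 0.136 TPM and the minus TC 0.675, 0.420, 0.582 and 0.136 TPM in the libraries labelled control, with no tag on either strand in the others, at least 16.1-fold and 23.0-fold higher. At chr3L:2575205-2575246 the minus TC had 1.55, 2.36, 3.94 and 2.17 TPM against 3 tags, and the plus TC 0.517, 0.184, 0.388 and 0.136 TPM against none. At chr3L:8078342-8078444 and chr3L:15224358-15224449 the plus TCs had no tag in the libraries labelled exosome knockdown and were at least 20.2-fold and 15.4-fold higher, and each minus TC had 1 tag there, against 169 and 160 tags. All these pairs were named for groups that do not overlap, so their separation is a description.

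The named pairs lower on both strands had few tags. At chr3L:20305500-20305628 the minus TC had 0.135, 0.0263, 0.0431 and 0.0272 TPM in the libraries labelled control and 0.661, 0.536, 0.754 and 0.519 TPM in the others, and fell by 3.34 ± 0.52 on the log2 scale (SE, edgeR, adjusted p = 0.00013). Its plus TC had 0, 0, 0.0216 and 0.0815 TPM against 0.159, 0.268, 0.442 and 0.355 TPM, and fell by 3.51 ± 0.76 (adjusted p = 0.0018). The groups did not overlap on either strand, which, like both calls, was a condition for naming the pair. At chr2L:19578648-19578821 the minus TC had no tag in the libraries labelled control and 0.0683, 0.119, 0.572 and 0.164 TPM in the others, at least 12.8-fold lower, and the plus TC had 2 tags against 39. At chr3L:19600597-19600702 the plus TC had 1 tag against 39 and the minus TC 6 against 60.

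The 3 pairs with the most tags on each arm were named. Of these 6, 2 were called higher on both strands, 1 on the plus strand alone, and none lower. Of all divergent pairs 19.4% were higher on both strands and 16.1% on 1 strand alone, and 4.49% and 10.5% were lower. At chr2L:849847-849888, where the summits are 12 bp apart, the plus TC had 4.39, 2.86, 3.21 and 1.71 TPM against 0.296, 0.417, 0.364 and 0.465 TPM (log2 fold change 2.96 ± 0.37 SE, edgeR, adjusted p = 1.7e-05). The minus TC was more variable, with 1.87, 0.814, 6.01 and 2.23 TPM against 0.182, 0.149, 0.234 and 0.273 TPM (3.61 ± 0.51, adjusted p = 5.8e-05). At chr2L:13027423-13027477 the plus TC had 2.43 ± 0.400 TPM against 0.837 ± 0.229 TPM and the minus TC 2.53 ± 0.583 TPM against 0.842 ± 0.243 TPM (SD, n = 4 each). Both strands were higher there without overlap, by 1.52 ± 0.32 and 1.55 ± 0.32 on the log2 scale (SE, edgeR, adjusted p = 0.0013 and 0.0012).

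The remaining strong pairs gave 1 call. At chr2L:21574934-21575049 the plus TC had 1.51 ± 0.901 TPM against 1.01 ± 0.0762 TPM and the minus TC 1.67 ± 0.303 TPM against 1.53 ± 0.483 TPM, and neither passed the test. At chr3L:8525716-8525832 neither strand passed, with minus TC values of 2.59, 2.13, 2.37 and 1.49 TPM against 2.03, 1.37, 1.85 and 2.08 TPM. At chr3L:8529635-8529722 the means were 1.40 ± 0.254 against 1.88 ± 0.224 TPM on the plus strand (adjusted p = 0.23 by edgeR) and 1.01 ± 0.211 against 1.60 ± 0.341 TPM on the minus strand (adjusted p = 0.11). At chr3L:2558282-2558355 the plus TC was higher, with 2.97, 1.94, 3.45 and 1.74 TPM against 1.39, 0.894, 1.14 and 1.61 TPM, a log2 fold change of 0.97 ± 0.31 (adjusted p = 0.024) that did not pass without replicate 2 or replicate 3 labelled exosome knockdown (0.87 and 0.91) or without replicate 1 or replicate 3 labelled control (0.88 and 0.83), nor with no filter on TCs (1.02). Its minus TC had 1.59 ± 0.585 TPM against 1.06 ± 0.304 TPM and did not pass.

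No pair had a summit within 250 bp of the middle of E1 or E4, enhancers chosen for RT-qPCR. At E4 the nearest plus TC, chr3L:17920638-17920640, had 1.20 ± 0.364 TPM against 0.0410 ± 0.0820 TPM, and the nearest minus TC, chr3L:17920257-17920264, had 1.21 ± 0.586 TPM against 0.0137 ± 0.0273 TPM (SD, n = 4 each). Both were higher (edgeR, adjusted p = 8.7e-05 and 7.3e-06), but they lie farther apart than the rule allows. In the study's RT-qPCR, RNAs of both strands of E4 were more abundant after exosome depletion, the direction of the libraries labelled control here. E1 lies within the vri gene. Its nearest TCs of 0.1 TPM or more, chr2L:5306918-5306934 (plus) and chr2L:5306572-5306599 (minus), were likewise too far apart for the rule. A minus TC farther off, chr2L:5306360-5306391 with 4.71 TPM, lay above the upper limit.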

How the data were processed

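CAGE libraries of S2 cells were analysed from deposited counts of tag 5′ ends at each dm3 position and strand. The authors made these counts from trimmed reads mapped with Bowtie 1.1.1, per the submitters' processing notes, without normalization. TPM were computed here from each library's total. The members and the lists compared were chosen with earlier results of these data known, and the linking of pairs into stretches the choice of pairs standing alone and that of the dense stretch with most higher calls were made after the values were seen. The sources used here name no removal of duplicate reads, so limits for empty groups, 3 tags over the 4 libraries, cover counting error only.

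Positions that reached 2 tags in some library were merged across gaps of up to 20 bp, strand by strand. Within each cluster, positions with less than 0.1 of the pooled tags at the summit were removed, and merging was repeated. The mean level in the rule spans both groups, so a TC high in 1 group alone can be a member, and every member TC passed the filter of the test. The test of change was the quasi-likelihood test of edgeR 4.0.16 with TMM factors in R 4.3.3, with Benjamini-Hochberg adjustment, and with DESeq2 1.42.0 and limma 3.58.1 as alternatives. TMM factors were 0.892 to 1.10. The strand by group model had library totals as offsets. Scripts were tested on simulated counts in which few TCs or pairs changed. Of 100 TCs changed 4-fold 9 were called, although 96 had an unadjusted p under 0.05, and of 100 changed 32-fold 100 were called. For strand differences 35 of 100 were called at 4-fold, 83 had an unadjusted p under 0.05, and 100 were called at 32-fold. In the data 24.1% of TCs were called higher and 10.1% lower, and strand differences in 8.32% and 7.66% of all divergent pairs. The adjustment was therefore less strict there than in the simulation. The recovery at 4-fold does not give the power of the tests used, and changes of a few fold may still be missed. Replicates of a group differed by more than counting error (chi-square per degree of freedom 8.89 to 32.9), so none was a copy. Libraries were pooled 4 to a lane, and the pool of each library is not given in the sources used here, so its part in any result was not tested. Named pairs were the 3 with the most tags per arm, the 5 with the largest changes higher and the 3 lower on both strands without overlap, and the 4 with the largest strand differences. The windows of 20 kb with the most pairs were named too. Positions were not converted to another build, and no sequence is given.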

Additional observations from a re-analysis of the deposited data

Results flagged for a closer look

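Among 154 groups of 4 values examined at the named pairs, stretches and sums, 15 had 1 library far from the other 3. Chance gives about 1 in 20 for independent measured values, which does not apply here as it stands: 5 of the 15 had tags in 1 library alone, which always meets the limit, and pairs lie within the stretches. In the libraries labelled exosome knockdown, tags came from replicate 1 alone at the minus TC of chr3L:8078342-8078444 (0.0228 TPM), the plus TC of chr2L:21690419-21690506 (0.0456 TPM), the minus TC of chr3L:15224358-15224449 (0.0228 TPM) and the plus TC of chr2L:7779910-7779964 (0.0228 TPM). In these libraries replicate 4 stood apart on the minus strand of the stretches chr3L:16636913-16637412 (0.219 TPM) and chr3L:22297381-22301148 (44.4 TPM against 11.9, 13.4 and 12.2 TPM), and on the plus strand of chr3L:2637315-2641719 (37.3 TPM).

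In the libraries labelled control, replicate 4 stood apart on the plus strand of chr2L:5012838-5017961 (16.1 TPM) and on the minus strand of the window chr3L:6188589-6208588 (46.7 TPM). Replicate 3 stood apart at the plus TC of chr3L:19986821-19986877 (0.604 TPM), on both strands of chr3L:8076813-8078433 (28.1 and 8.13 TPM) and on the minus strand of chr3L:15222383-15224706 (27.4 TPM). Replicate 1 did so at the minus TC of chr3L:20305500-20305628 (0.135 TPM), and replicate 2 alone had a tag at the plus TC of chr3L:19600597-19600702 (0.0263 TPM).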

How the results depend on the processing

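The counts of called TCs and pairs stayed within 1.5 times under DESeq2, DESeq2 size factors, library totals and no filter, except that pairs with both strands lower numbered 113 without a filter. A filter of 0.5 TPM leaves few members in the test, and gave 154 plus and 148 minus TCs higher, 88 and 103 lower, and 28 and 11 pairs with both strands higher and lower. Leaving out 1 library gave 108 to 170 pairs with both strands lower. Leaving out stretches of 10 or more pairs gave 95, and leaving out the stretch of most pairs gave 138. Without a filter the median over all TCs tested was 0.37, and under other scalings 0.12 to 0.13.

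The labels do not say whether replicate numbers pair the libraries, and the main test of change did not use them as pairs. Deviations of same-numbered libraries correlated by 0.02 to 0.23, and 3 of 4 numbers correlated best with their own. With a replicate block 648 plus and 540 minus TCs were higher, and 490 and 187 pairs had both strands higher and lower, and a block in limma called a strand difference in 147 pairs.

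A filter of 0.3 TPM left 52 pairs with a strand difference (30 plus, 22 minus), and windows of 200 bp gave 250 (129 and 121). Taking the nearest minus TC of at least 0.1 TPM gave 5149 pairs at a median of 74 bp, no trimming 1696 at 49 bp, isolation over 2 kb 1923, no TC of 2 TPM within 1 kb 1821 at 41 bp, and pooled tags 3142 at 42 bp. Leaving out 1 library gave 39 to 40 bp. The median absolute balance, the difference of the strands over their sum, was 0.382 and 0.414 in windows of 200 bp in the libraries labelled control and labelled exosome knockdown, against 0.340 and 0.374. Without 1 library of the latter it was 0.381 to 0.395. In the densest stretches, linked within 1 kb, both strands were higher in 3.87%, and without the stretch of most pairs, chosen after seeing the data, both were lower in 6.13%.

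Of 564 fits of the 42 named TCs, 562 kept their direction. The minus TC of chr2L:21574934-21575049, not called, changed sign without replicate 1 labelled exosome knockdown and without replicate 2 labelled control, with a range over the left-out libraries of -0.068 to 0.387. Both strands had a tag in all 8 libraries for 64.5% of the pairs, so changes of the weaker TCs rest on few tags in a library.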
